A study of Homo sapiens with 6 samples.

Results

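The mitochondrial ribosomal protein genes, which code for the protein subunits of the ribosome inside mitochondria, were followed in OE-19 cells with and without IGF2BP3. The members are the coding genes of the count table whose symbol is MRPL or MRPS followed by a number and, for some, a letter from A to C, and 78 of the 60480 identifiers in the table met this rule. OE-19 is an established human line of adenocarcinoma of the esophagogastric junction (AEG), an epithelial cancer at the border of esophagus and stomach. The control group held 3 poly(A) RNA-seq libraries of OE-19 cells with control short hairpin RNA (shControl). The IGF2BP3 KD group held 3 libraries of OE-19 cells with short hairpin RNA against IGF2BP3 (shIGF2BP3), an RNA-binding protein known as a reader of m6A. All cells came from the single line OE-19. Whether the libraries of a group shared the same hairpin is not given in the labels. The count columns and descriptions of the control libraries carry the name Puro, which the labels do not explain and which the IGF2BP3 KD libraries do not carry, so whether the groups also differed in selection is not given there. The labels number the libraries within a group without naming separate cultures, so the p-values measure the spread between these libraries, which may be technical.

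Mitochondria keep a small genome of their own, and its mRNAs code for core subunits of the respiratory chain. They are translated inside the organelle by the mitoribosome, which has a small subunit that reads the mRNA and a large subunit that joins the amino acids. The mitoribosomal RNAs are made from the mitochondrial genome, while the proteins are coded by nuclear genes, made in the cytosol and imported, so that both genomes have to be expressed to build the particle. In the uniform nomenclature a protein shared with all ribosomes carries the prefix u, a protein shared with bacterial ribosomes b, and a protein found in mitochondria only m.

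Of the 78 genes, 26 code for proteins of the small subunit and 51 for proteins of the large subunit. Among the latter are *MRPS30* (mL65) and *MRPS18A* (mL66), which have small-subunit symbols but sit in the large subunit. The product of *MRPS36* is known as a component of the alpha-ketoglutarate dehydrogenase complex, so this gene met the naming rule without coding for a ribosomal subunit. Going by the prefixes of these names, proteins with a bacterial counterpart make up 45 of the members and mitochondria-specific proteins 32. *MRPS18A* counts among the latter by its prefix.

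*IGF2BP3* (ENSG00000136231, chr7:23310209-23470491, hg38) had 7416, 7363 and 6532 counts in the control libraries and 777, 792 and 794 in the IGF2BP3 KD libraries. Every IGF2BP3 KD library was far below every control library. The log2 fold change was -3.03 (SE 0.061, adjusted p = 3.1e-10, quasi-likelihood test of edgeR, Benjamini-Hochberg adjusted over 19778 genes). Library totals lay between 53424071 and 69989087 counts. Of the markers of an epithelial line, *EPCAM*, *KRT8*, *KRT18*, *KRT19* and *CDH1* were abundant in all libraries. The 7 markers listed summed to 18171 to 19158 CPM in the control and 19849 to 20307 CPM in the IGF2BP3 KD libraries, most of it *ERBB2*, with 2 called lower and 3 higher by edgeR. The summed level of 5 leukocyte markers was 0.704 to 1.32 CPM (counts scaled to the size of the library) over the 6 libraries, with *CD3E* at 0 in each. The summed level of 6 fibroblast markers was 21.2 to 24.5 CPM in the control and 29.9 to 34.4 CPM in the IGF2BP3 KD libraries, most of it *COL1A1*, while *COL1A2* and *LUM* were at 0 in all. Of the 3 fibroblast markers that could be tested, edgeR called 1 higher and 0 lower. The part of these markers in the results on mitoribosomal genes was not tested.

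All 78 genes passed the filter on low counts, and the lowest count of any of them in any library was 243. Single genes moved by small amounts in both directions. In IGF2BP3 KD cells 7 of the 78 were lower and 6 higher, or 16.7% in either direction, where 20.4% of all genes tested were called (adjusted p under 0.05, 10.6% lower and 9.87% higher). The share was also below the 27.4% of the coding genes tested and the 33.8% of the 10993 genes with a mean CPM at least as high as that of the lowest member, a comparison chosen after the data were seen. The median log2 fold change was -0.01 over the members and 0.01 over all genes tested, and the members' median in a single library varied with an SD of 0.017 between libraries of a group. With the trend on exon length removed the members' median was -0.0508, with the GC trend removed -0.0317 and over the members that share no exonic base -0.0347. Log2 fold changes of the members ran from -0.43 to 0.63, with quartiles at -0.10 and 0.07, against -0.17 and 0.21 over all genes tested. Over the 10993 genes at least as abundant as the lowest member the quartiles were -0.13 and 0.13. In bulk RNA, fewer cells of a type and less RNA per cell cannot be told apart.

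The members summed to 3693, 3634 and 3609 CPM in the control libraries and to 3554, 3566 and 3660 CPM in the IGF2BP3 KD libraries. The groups overlapped, since the third IGF2BP3 KD library lay above 2 of the control libraries. The means were 3645 ± 43.1 CPM and 3593 ± 58.0 CPM (SD, n = 3), a difference of -1.43%. The share of all counts that fell on the members was 0.362% ± 0.00389 and 0.361% ± 0.00425 (SD, n = 3). Small-subunit genes summed to 1286.5 to 1334.8 CPM in control and 1267.6 to 1278 CPM in IGF2BP3 KD libraries, without overlap (-2.25% between means). Large-subunit genes summed to 2316 to 2352 and 2279 to 2376 CPM, with overlap (-0.999%). These differences were not tested. The summed CPM of small-subunit genes divided by that of large-subunit genes was 0.558 ± 0.00853 in control and 0.551 ± 0.0123 in IGF2BP3 KD libraries (SD, n = 3), with overlapping ranges.

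**Figure D1:**
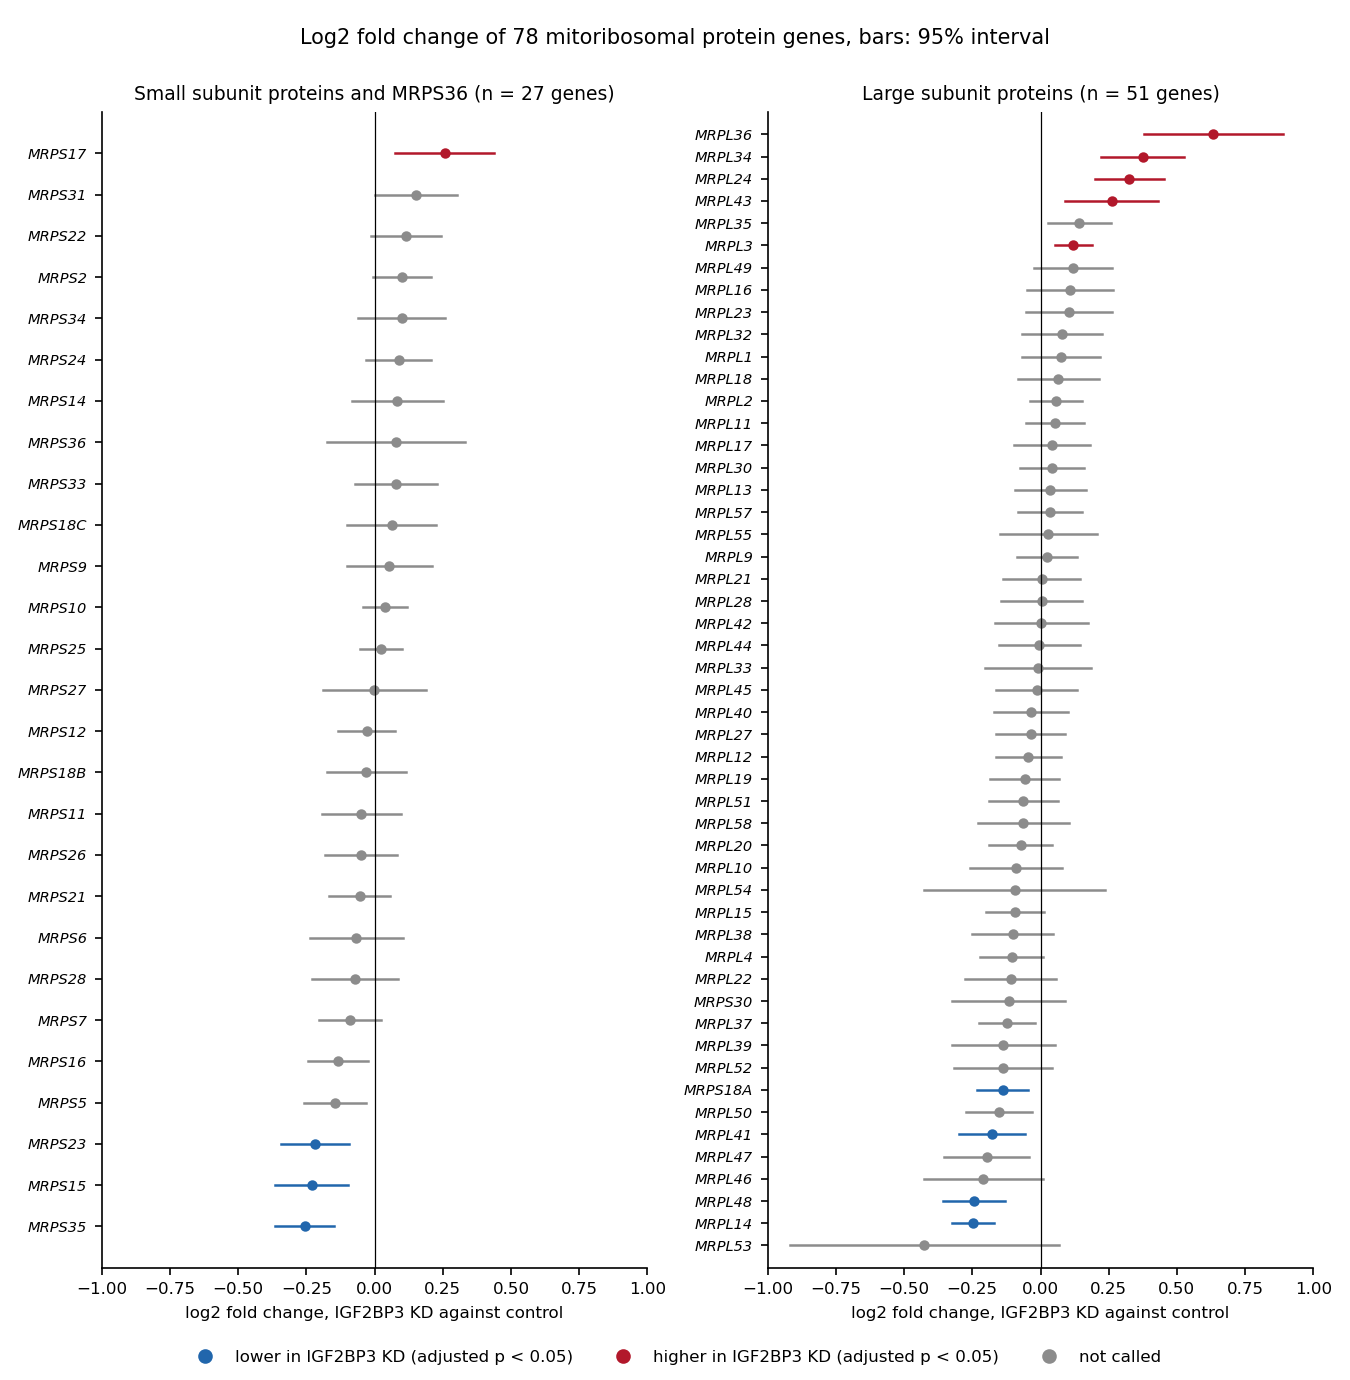
Log2 fold change (x axis, IGF2BP3 KD against control, 3 libraries each) of every one of the 78 genes (y axis), with small-subunit genes and MRPS36 on the left and large-subunit genes on the right. Bars are 95% intervals, blue marks the 7 genes called lower, red the 6 called higher and grey the 65 not called, and most points lie within 0.25 of 0 on both sides.

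The 65 genes that were not called had narrow intervals for the most part. The 95% interval of the log2 fold change lay within 0.25 of 0 for 46 of them and within 0.5 of 0 for 64. The exception was *MRPL53*. The control and IGF2BP3 KD libraries did not overlap for 24 of the 78 members (30.8%, against 35.8% of all genes tested), among them 11 that were not called. The share was 43.3% of the coding genes tested and 50.6% of the 10993 genes with a mean CPM at least that of the lowest member. A missed threshold does not show that a gene was at the same level in both groups, and the intervals give the sizes of change that the libraries allow.

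By subunit, calls ran in both directions, and the difference between the subunits was not tested. In the small subunit, 3 of 26 genes fell and 1 rose, at a median log2 fold change of -0.01. In the large subunit, 4 of 51 fell and 5 rose, at a median of -0.01. *MRPS36* had a log2 fold change of 0.08 and was not called. Among the genes of proteins with a bacterial counterpart, 2 of 45 were lower and 5 higher (median 0.02), and among those of mitochondria-specific proteins 5 of 32 were lower and 1 higher (median -0.06). Calls made up 15.4% of the small-subunit and 17.6% of the large-subunit genes. They made up 15.6% of the genes with a bacterial counterpart and 18.8% of the mitochondria-specific ones. Over all genes tested 20.4% were called, 10.6% lower and 9.87% higher. Whether the 2 kinds of protein differ was not tested.

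Per kilobase of exon (RPKM, CPM divided by the exon length in GENCODE v44), the members spread over a 96.6-fold range, from 1.29 to 125 RPKM, with a median of 14.8 and a ratio of 2.89 between the upper and lower quartile. The median level was 14.3 RPKM for the small and 15.0 RPKM for the large subunit. The length counts every annotated exon, so genes with long, rarely used exons such as *MRPS27*, the lowest of the list, are scaled down more than others. Across the 78 genes the log2 RPKM of the group means had a Spearman correlation of 0.987 between control and IGF2BP3 KD, a description over genes that share libraries and lengths and whose levels span far more than any of their changes.

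*MRPL14* (uL14m, a protein of the large-subunit face that meets the small subunit) had the highest length-scaled level, with 135 RPKM in control and 114 RPKM in IGF2BP3 KD cells, and next came *MRPS18A* with 102 and 93.0 RPKM. *MRPS10* (uS10m, a small-subunit protein, ENSG00000048544) was the third by RPKM and had the highest CPM. Its level was 178, 172 and 184 CPM in the control libraries and 177, 183 and 189 CPM in the IGF2BP3 KD libraries. The groups overlapped, and the log2 fold change was 0.04 (95% interval -0.04 to 0.12).

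**Figure D2:**
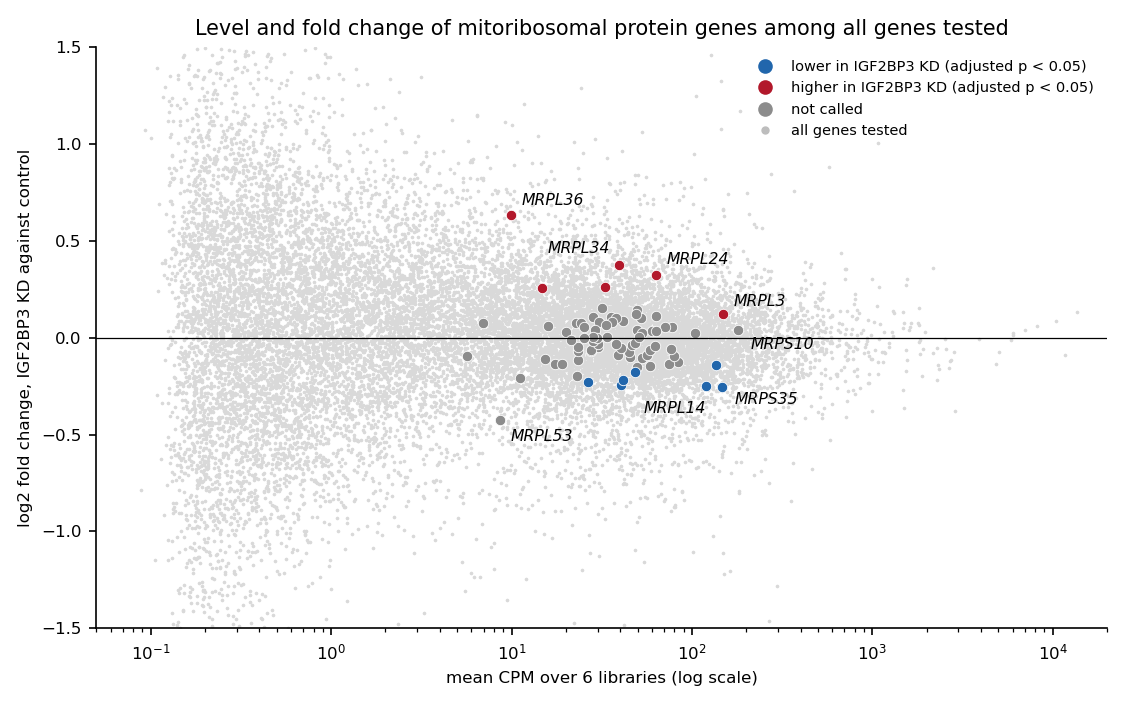
Mean CPM over the 6 libraries (x axis, log scale) against the log2 fold change between IGF2BP3 KD and control (y axis) for the 78 mitoribosomal protein genes and, in pale grey, the 19778 genes tested, of which 242 lie outside the y axis. The members sit between 5.67 and 180.5 CPM and spread less around 0 than genes of low count, with MRPL36 and MRPL53 at the lower end of the members' levels and farthest from 0.

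Of the 7 genes that were lower, *MRPL14*, *MRPS35* and *MRPL48* were called in all 6 fits that each left out 1 library and in all 9 other alternatives. *MRPL14* (ENSG00000180992, chr6:44113451-44127452) was at 130.2, 127 and 131 CPM in the control libraries and at 109.6, 112 and 106 CPM in the IGF2BP3 KD libraries. The groups were well apart, and the libraries of each group lay close together. The log2 fold change was -0.25 (SE 0.035, adjusted p = 5.0e-04 by edgeR), a difference of -15.7%.

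*MRPS35* (mS35, a mitochondria-specific protein of the small subunit, ENSG00000061794, chr12:27710822-27756295) had 173, 155 and 153 CPM in control and 139, 135 and 129 CPM in IGF2BP3 KD libraries. The first control library was the highest, and no libraries overlapped between the groups. The log2 fold change was -0.26 (SE 0.049, adjusted p = 0.0035 by edgeR) and ranged from -0.29 to -0.20 with each library left out. *MRPL48* (mL48, a mitochondria-specific protein of the large subunit, ENSG00000175581, chr11:73787872-73865133) was at 45.2, 43.6 and 43.2 CPM against 37.8, 36.0 and 37.8 CPM. No libraries overlapped, with a log2 fold change of -0.24 (SE 0.052, adjusted p = 0.0065 by edgeR).

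The other 4 lower genes were called in fewer of the alternatives. *MRPS23* (mS23, small subunit, ENSG00000181610) was at 47.4, 43.9 and 42.4 CPM in control and 38.2, 38.8 and 37.9 CPM in IGF2BP3 KD libraries. The IGF2BP3 KD libraries lay within 1 CPM of each other and below all control libraries, and the log2 fold change was -0.22 (adjusted p = 0.018 by edgeR). *MRPS15* (uS15m, small subunit, ENSG00000116898) had 27.7, 29.1 and 28.8 CPM in control and 23.9, 25.5 and 23.5 CPM in IGF2BP3 KD libraries. Its groups did not overlap either, at a log2 fold change of -0.23 (adjusted p = 0.020 by edgeR). *MRPS18A* (ENSG00000096080), which codes for mL66, was at 140.4, 145 and 140.1 CPM against 128, 122 and 136 CPM. The third IGF2BP3 KD library came within 4 CPM of the lowest control library, and the log2 fold change was -0.14 (adjusted p = 0.039 by edgeR). *MRPL41* (mL41, large subunit, ENSG00000182154), a gene of only 582 exonic bases, was at 49.8, 54.1 and 50.9 CPM against 46.6, 43.4 and 47.0 CPM. The groups were close but separate, with a log2 fold change of -0.18 (adjusted p = 0.043 by edgeR). The call of *MRPS23* was lost without control replicate 1 or IGF2BP3 KD replicate 1 or 3 (log2 fold change -0.26 to -0.17 over the 6 fits), and that of *MRPS15* without control replicate 2 or 3 or IGF2BP3 KD replicate 1 or 3 (-0.27 to -0.21). That of *MRPS18A* held only without IGF2BP3 KD replicate 3 (-0.18 to -0.10) and that of *MRPL41* only without control replicate 1 (-0.20 to -0.14). Without the filter on low counts the calls of *MRPS18A* and *MRPL41* were lost as well (edgeR adjusted p = 0.073 and 0.056).

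**Figure D3:**
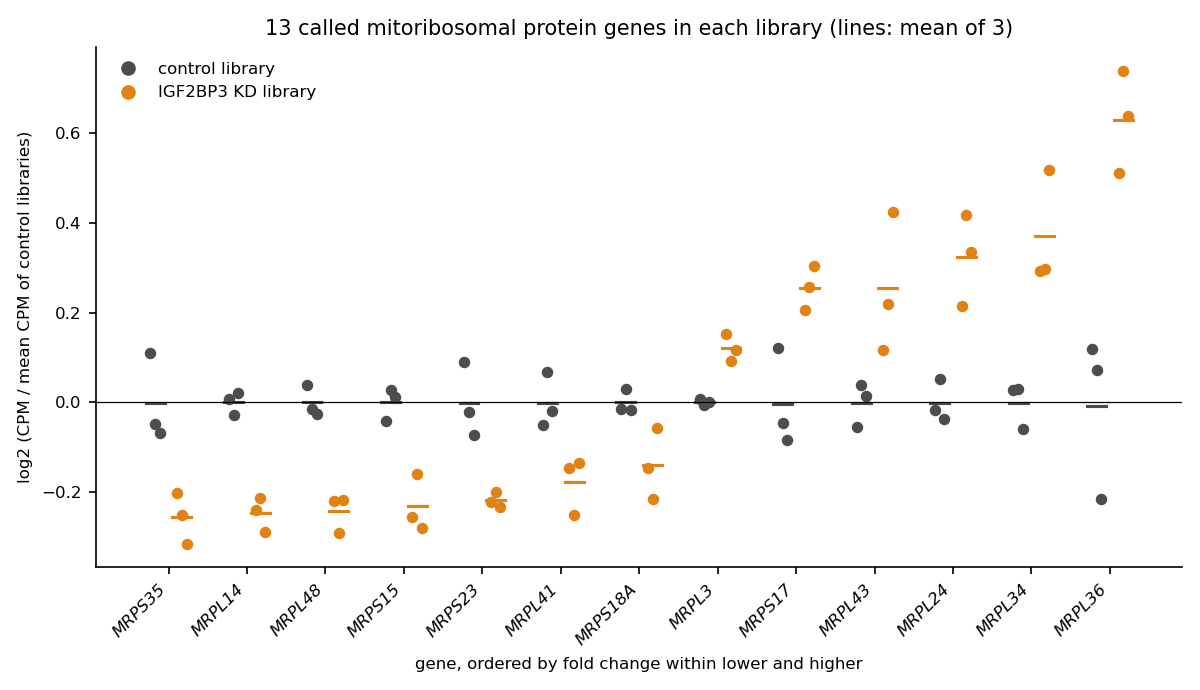
Level of the 13 called genes (x axis) in each library as log2 of its CPM over the mean CPM of the control libraries (y axis). Points are libraries, dark grey for control and orange for IGF2BP3 KD, short lines are means of 3, and the 2 groups do not overlap for any of the 13 genes.

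Of the 6 genes that were higher, *MRPL36*, *MRPL34* and *MRPL24* were called in every fit that left out 1 library and in all 9 other alternatives. *MRPL36* (bL36m, the smallest protein of the bacterial large subunit, ENSG00000171421, chr5:1798385-1801366) had the largest change of the 78. Its level was 8.47, 8.20 and 6.71 CPM in the control libraries and 11.1, 13.01 and 12.1 CPM in the IGF2BP3 KD libraries. The lowest IGF2BP3 KD library was above the highest control library. The log2 fold change was 0.63 (SE 0.12, adjusted p = 0.0025 by edgeR), or 55.1% more, and ranged from 0.53 to 0.69 with each library left out.

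*MRPL34* (bL34m, ENSG00000130312, chr19:17292609-17306843) was at 34.9, 35.0 and 32.8 CPM in control and 41.9, 42.1 and 49.1 CPM in IGF2BP3 KD libraries. The third IGF2BP3 KD library was highest, and the log2 fold change was 0.37 (SE 0.069, adjusted p = 0.0027 by edgeR). *MRPL24* (uL24m, a protein that binds early in assembly of the bacterial large subunit, ENSG00000143314, chr1:156737303-156741590) was at 55.3, 58.0 and 54.6 CPM against 65.02, 74.8 and 70.7 CPM. All IGF2BP3 KD libraries were above all control libraries, with a log2 fold change of 0.33 (SE 0.057, adjusted p = 0.0018 by edgeR).

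Smaller or less stable rises were seen in 3 more genes. *MRPL3* (uL3m, a protein near the site of peptide bond formation, ENSG00000114686) was at 143, 142 and 143 CPM in control and at 159, 152 and 155 CPM in IGF2BP3 KD libraries. The control libraries were nearly equal, and the log2 fold change was 0.12 (adjusted p = 0.019 by edgeR). *MRPL43* (mL43, ENSG00000055950) was at 28.9, 30.8 and 30.2 CPM against 32.5, 34.9 and 40.2 CPM. The third IGF2BP3 KD library stood above the rest, and the log2 fold change was 0.26 with all libraries (adjusted p = 0.035 by edgeR). *MRPS17* (uS17m, ENSG00000239789), the only small-subunit gene called higher, had 14.7, 13.1 and 12.7 CPM in control and 15.6, 16.1 and 16.7 CPM in IGF2BP3 KD libraries. Its log2 fold change of 0.26 lay just inside the threshold (adjusted p = 0.0499 by edgeR) and was not called in 11 of 15 alternatives. Among the 6 fits that left out a library, the call of *MRPL3* was lost without control replicate 2 or 3 or IGF2BP3 KD replicate 1 or 3 (0.10 to 0.13). That of *MRPL43* held only without IGF2BP3 KD replicate 1 (0.17 to 0.32), and that of *MRPS17* only without control replicate 1 (0.21 to 0.32). Without the filter on low counts none of these 3 was called (edgeR adjusted p = 0.057, 0.091 and 0.12), and with the exon length trend removed *MRPL3* was not either (edgeR adjusted p = 0.056).

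The largest log2 fold changes among genes that were not called belonged to *MRPL53*, *MRPL46* and *MRPL47*. *MRPL53* (mL53, ENSG00000204822) was at 13.4, 6.14 and 10.2 CPM in control and at 8.23, 7.10 and 6.79 CPM in IGF2BP3 KD libraries. The second control library was the lowest of all 6, so the groups overlapped, and the log2 fold change was -0.43 (95% interval -0.92 to 0.07). Without the first control library it was -0.15, and without the second it was -0.68 with an adjusted p of 0.013 by edgeR. *MRPL46* (mL46, ENSG00000259494) had 11.6, 13.3 and 10.9 CPM against 10.4, 9.91 and 10.6 CPM, and *MRPL47* (uL29m, ENSG00000136522) had 26.4, 24.0 and 23.1 CPM against 21.8, 21.9 and 20.4 CPM. Neither overlapped between the groups, with log2 fold changes of -0.21 (adjusted p = 0.18) and -0.20 (adjusted p = 0.076) by edgeR.

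Some members share exonic sequence with a neighbouring gene in GENCODE v44, which bears on how reads are assigned. Exonic bases were shared by 41 of the 78, on the same strand for 18 and on the opposite strand for 30, and 29 shared over 10% of their exon length with a single other gene. The library kit keeps strand, while the strand setting of the counting is not given in the sources used here. Of the 13 called genes, 8 shared no exonic base: *MRPL14*, *MRPL24*, *MRPL36*, *MRPS35*, *MRPL48*, *MRPS23*, *MRPS15* and *MRPL41*. The counts of the other 5 are less certain. *MRPL43* shared 1215 bases (34.0% of its exon length) with *SEMA4G* on the opposite strand, which was also higher (log2 fold change 0.18, adjusted p = 0.032 by edgeR), a call lost in 4 of the 6 fits without 1 library, those without control replicate 1 or 2 or IGF2BP3 KD replicate 1 or 3 (0.13 to 0.21). *MRPS18A* shared 50.9% of its length with *RSPH9*, which was at only 1.85 CPM in control libraries. *MRPL34* shared 223 bases (14.6% of its length) with *ABHD8* on the opposite strand, at 9.71 CPM in control and 11.4 CPM in IGF2BP3 KD libraries. The groups did not overlap for *ABHD8* (log2 fold change 0.23, edgeR adjusted p = 0.22, not called). *MRPL3* shared 254 bases with a lncRNA listed at 0 in the control libraries. *MRPS17* shared 22.4% with a readthrough gene at 0.871 CPM in control and 1.65 CPM in IGF2BP3 KD libraries, with overlap (log2 fold change 0.91, edgeR adjusted p = 0.15, not called). *MRPS17* also shared 54 bases on the same strand with *NIPSNAP2*, at 68.3 CPM in control and 73.5 CPM in IGF2BP3 KD libraries without overlap (log2 fold change 0.11, edgeR adjusted p = 0.12, not called). *MRPL53* shared 72.8% of its length with *CCDC142* on the same strand and 79.4% with a lncRNA on the opposite strand, at 17.3 and 12.7 CPM in control libraries. The part of shared exons in these values was not tested. The table also held 79 pseudogenes named after 36 of the members. Their counts summed to 2.18 CPM, and of the 5 that could be tested 0 were called by edgeR, 0 by DESeq2 and 0 at an unadjusted p under 0.05. How reads that fit both a member and its pseudogene were counted was not tested.

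Many nuclear genes for mitochondrial proteins start back to back with another gene. A coding gene on the opposite strand started head to head with 19 of the members, which made 18 pairs with a tested partner. In 13 of the 18 pairs neither gene was called, and 10 pairs had log2 fold changes of the same sign. Partners were lower in 4 pairs and higher in 0, by edgeR and DESeq2 alike, and 0 were higher at an unadjusted p under 0.05. Of all genes tested, 10.6% were lower and 9.87% higher by edgeR, and the difference from these shares was not tested. *MTBP*, which overlaps the start of *MRPL13* by a few bases, had a log2 fold change of -0.35, *SKA3*, next to *MRPL57*, of -0.25, and *TCP1*, next to *MRPL18*, of -0.13. Their mitoribosomal neighbours had log2 fold changes of 0.04, 0.04 and 0.07 and were not called. The call of *TCP1* was lost without control replicate 1 or 2 or IGF2BP3 KD replicate 1 or 2, at -0.15 to -0.11 over the 6 fits. By its GENCODE v44 start, *MRPL36* began 41 bases from *NDUFS6*, a subunit of respiratory complex I, which had a log2 fold change of -0.09 and was not called. *MRPL43* and *TWNK*, which codes for the mitochondrial DNA helicase, share 149 exonic bases at their starts and were called in opposite directions, at 0.26 and -0.31. Of the 6 fits that left out a library, *MRPL43* was called in 1 and *TWNK* in 6. *MRPL46* and *MRPS11*, 63 bases apart, are both members, and neither was called.

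**Figure D4:**
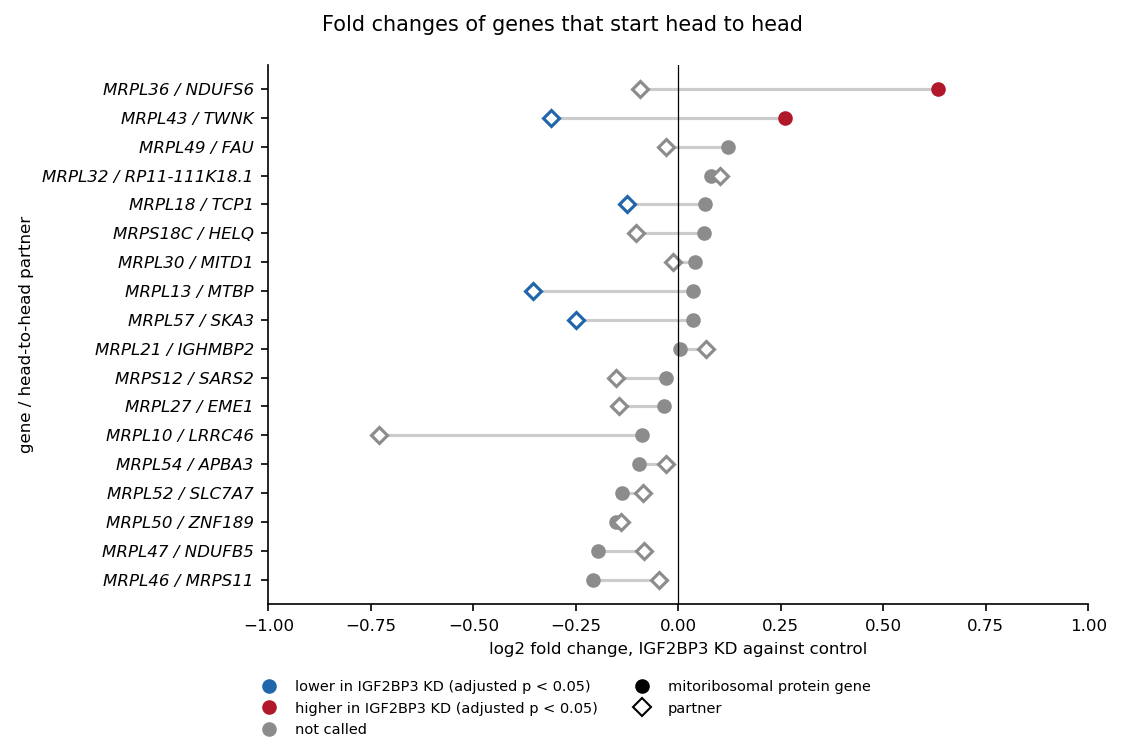
Log2 fold change between IGF2BP3 KD and control (x axis) of the 18 pairs of genes that start head to head (y axis), with circles for the mitoribosomal gene and open diamonds for its partner. Colours give the call with all libraries, and MRPL43 with TWNK is the pair called in opposite directions, at 0.26 and -0.31. The call of MRPL43 was lost in most fits that left out a library.

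The promoters of the members were searched for 3 known binding motifs on both strands, since nuclear genes for mitochondrial proteins are known targets of ETS factors such as GABP, of YY1 and of NRF1. RefSeq promoters (GRCh38.p14, 250 bases before to 50 bases after the gene start) were matched for 69 of the 78 by symbol. A RefSeq start can differ from the GENCODE v44 start used for the head-to-head pairs. The window of *MRPL36* belongs to a RefSeq start inside its GENCODE gene (chr5:1798385-1801366), not to the start next to *NDUFS6*. The ETS core CCGGAAG was in 29 of the 69 (42.0%), against 10.7% of 27305 promoters and 18.3% of those of coding genes tested. The YY1 core ATGGCGGC was in 19 (27.5%), against 3.21% and 6.004%, and in 17 of the 19 it lay on the gene's own strand, 9 to 38 bases after the start. The NRF1 core, GCGCA followed directly by TGCGC, was in 1 (1.45%), against 1.36% and 2.19%. A match is a description of the letters and not a binding site. The YY1 core begins with the letters ATG, and whether the matches after the gene start lie at the start of translation was not tested. The matches of the called genes are shown because genes that moved in either direction hold them. Capitals mark the core, which is spelled as its reverse complement where it lies on the other strand, each line runs 5′ to 3′ on the gene's strand, and no match of one core shares a base with a match of another.
MRPL3 (higher), ETS core, chr3:131502986-131503014, minus strand: tgtaaaacgcaCCGGAAGtgggtccggcg
MRPL43 (higher), ETS core, chr10:100987498-100987526, minus strand: tcgtcccggaaCCGGAAGcctcgaggttt
MRPS18A (lower), ETS core, chr6:43687805-43687833, minus strand: ggcgctacgttCCGGAAGcggaaatggac
MRPL48 (lower), ETS core, chr11:73787800-73787828, plus strand: aatttcagaagCTTCCGGaactaaaatga
MRPS23 (lower), ETS core, chr17:57850041-57850069, minus strand: tggagcagccgCTTCCGGttccggtagca
MRPL36 (higher), YY1 core, chr5:1799857-1799886, minus strand: cccccccccccGCCGCCATcttccttcctg
MRPS35 (lower), YY1 core, chr12:27710833-27710862, plus strand: tcctcgcagccATGGCGGCcgccgcgctcc
MRPS15 (lower), YY1 core, chr1:36464339-36464368, minus strand: cctgggccagcATGGCGGCgcccatgtaac
MRPS18A (lower), YY1 core, chr6:43687761-43687790, minus strand: ggtttttgaagATGGCGGCcctcaaggctc

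The ETS core was thus in 3 of the 7 lower genes, 2 of the 6 higher genes and 24 of 56 matched genes that were not called. Members with it had a median log2 fold change of -0.04 and those without it of -0.00. The factors themselves changed in both directions. *GABPA*, the DNA-binding subunit of GABP, was lower (69.5 ± 3.44 to 52.9 ± 3.18 CPM, SD, n = 3, log2 fold change -0.39, edgeR adjusted p = 5.9e-04), and *GABPB1*, its partner subunit, was higher (0.31, edgeR adjusted p = 0.019), a call lost without control replicate 3 or IGF2BP3 KD replicate 1 (0.23 to 0.34 over the 6 fits). *PPARGC1A*, a coactivator of mitochondrial biogenesis, was lower (-0.36, edgeR adjusted p = 2.8e-04), and *YY1* was higher (0.16, edgeR adjusted p = 0.0059). *NRF1* (-0.22) and *MYC* (-0.08) were not called. Of the 10 regulators listed, 2 were lower, 2 were higher and 6 were not called. Calls thus made up 40% of this short list, against 20.4% of all genes tested.

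The 3′ UTRs of the members were searched for the 7-base words GATTACT and ACACATC, which an earlier analysis of these same libraries had tied to lower and higher genes. The members' 3′ UTRs were short, with a median of 464.5 bases against 1256 bases for coding genes tested (GENCODE v44, canonical transcripts). GATTACT was in 7 of the 78 (*MRPS25*, *MRPS18C*, *MRPL50*, *MRPS16*, *MRPL17*, *MRPS35* and *MRPL42*), of which edgeR called 1 lower (*MRPS35*) and 0 higher. Of the 1072 coding genes that hold it, 35.1% were lower, against 14.34% of all coding genes tested. DESeq2 called 3 of the 7 lower and 0 higher, and at an unadjusted p under 0.05 edgeR had the same counts. ACACATC was in *MRPL50*, *MRPL42* and *MRPS23*, of which 0 were higher and *MRPS23* was lower. Of the 1327 coding genes that hold it, 28.1% were higher, against 13.02% of all coding genes tested. Both words came from these same libraries, so 35.1% and 28.1% are not independent references. Whether the members differ from other genes that hold the words was not tested. With DESeq2, or at an unadjusted p under 0.05, 2 of the 3 were lower and 0 higher. The sites of the 2 called genes are shown with those of *MRPL50*, which holds both words and was not called (log2 fold change -0.15). Capitals mark the word, and lines run 5′ to 3′ along the mRNA in hg38.
MRPS35 (lower), GATTACT, chr12:27755588-27755617, plus strand: ttaatggcaatGATTACTccagagtttttt
MRPS23 (lower), ACACATC, chr17:57838728-57838757, minus strand: ctgtatatagtACACATCcatgcacgtggg
MRPL50 (not called), GATTACT, chr9:101389163-101389192, minus strand: aatcatctttaGATTACTtatactgaatag
MRPL50 (not called), ACACATC, chr9:101387993-101388022, minus strand: gacgagggtaaACACATCctaacagggaag

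The genes that build and run the mitoribosome were compared from lists of their own. The 5 mitoribosomal subunit genes with other names, *DAP3*, *CHCHD1*, *AURKAIP1*, *PTCD3* and *GADD45GIP1*, had log2 fold changes between -0.07 and 0.08 (median -0.02), and 0 were called by edgeR, 0 by DESeq2 and 0 at an unadjusted p under 0.05. Among 33 assembly factors, edgeR and DESeq2 each called 2 lower and 0 higher, with 1 higher at an unadjusted p under 0.05 (median -0.05). These 2 were 6.06% of the list, where edgeR called 20.4% of all genes tested (10.6% lower and 9.87% higher). *C1QBP*, a matrix protein with a role in mitoribosome assembly, was lower (129 ± 3.42 to 112 ± 4.80 CPM, SD, n = 3, log2 fold change -0.20, edgeR adjusted p = 0.0049). *MALSU1*, an assembly factor that binds uL14m on the large subunit, was at 31.9, 28.7 and 27.5 CPM in control and 17.5, 18.7 and 19.3 CPM in IGF2BP3 KD libraries. All IGF2BP3 KD libraries were well below all control libraries (log2 fold change -0.67, edgeR adjusted p = 8.6e-05). *MALSU1* lies tail to tail with *IGF2BP3* on the opposite strand, and 1521 of its exonic bases (41.0%) are also exonic in *IGF2BP3*, so its value is uncertain where the counting took no account of strand, and the part of this overlap was not tested.

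In the translation list, 3 of 18 genes were lower and 1 was higher (median -0.02). Together they were 22.2% of the list, against 20.4% of all genes tested. *GFM1* and *GFM2*, the mitochondrial elongation factor G and its relative for ribosome recycling, had log2 fold changes of -0.30 (edgeR adjusted p = 8.9e-04) and -0.33 (edgeR adjusted p = 0.030). The call of *GFM2* was lost without control replicate 1 or 3 or IGF2BP3 KD replicate 2 or 3 (-0.42 to -0.26 over the 6 fits). *LRPPRC*, which stabilizes mitochondrial mRNAs, was lower by a small amount (-0.11, edgeR adjusted p = 0.011), a call lost without IGF2BP3 KD replicate 2 (-0.13 to -0.10). *MTIF3*, the mitochondrial initiation factor 3, was higher (35.0 ± 1.93 to 43.5 ± 2.37 CPM, SD, n = 3, log2 fold change 0.31, edgeR adjusted p = 0.0042). Of 12 genes that copy and transcribe mitochondrial DNA (median -0.09), *TWNK* and *POLG*, its polymerase, were lower (-0.31 and -0.27). By edgeR, by DESeq2 or at an unadjusted p under 0.05, 0 of the 12 were higher. The 2 calls were 16.7% of this list, against 20.4% of all genes tested.

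On the side of the mitochondrial genome, 5 of the 13 mRNAs (38.5%) fell and 0 rose by edgeR, by DESeq2 and at an unadjusted p under 0.05. Over all genes tested edgeR called 10.6% lower and 9.87% higher. Of the 10993 genes at least as abundant as the lowest member it called 33.8%. The 13 mRNAs had a median level of 4864 CPM and a median SE of 0.032. Their median log2 fold change was -0.02 and the lowest value -0.16, in *MT-ATP8*, a subunit of ATP synthase. The rRNA of the small subunit, *MT-RNR1*, was at 609 ± 28.9 CPM in control and 578 ± 6.17 CPM in IGF2BP3 KD libraries (SD, n = 3), a log2 fold change of -0.07 that was not called. The rRNA of the large subunit, *MT-RNR2*, was at 10071 ± 409 and 10693 ± 141 CPM (SD, n = 3, log2 fold change 0.09, edgeR adjusted p = 0.029). The call of *MT-RNR2* held only in the fit without control replicate 1 among the 6 fits that left out a library, at log2 fold changes of 0.06 to 0.12, and was also lost without the filter on low counts and with the exon length trend removed. Both rRNAs were read from poly(A) libraries, which do not measure their full level.

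The nuclear genes of the respiratory chain had 3 of 82 lower and 12 higher (median 0.04), and those of the cytosolic ribosome 6 of 85 lower and 12 higher (median 0.04). Calls made up 16.7% of the mitoribosomal, 18.3% of the respiratory chain and 21.2% of the cytosolic ribosomal genes, against 20.4% of all genes tested. In each of the 3 lists they ran in both directions. The shares lower and higher were 8.97% and 7.69%, 3.66% and 14.6%, and 7.06% and 14.1% in that order. Over all genes tested they were 10.6% and 9.87%. Differences between the lists were not tested.

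**Figure D5:**
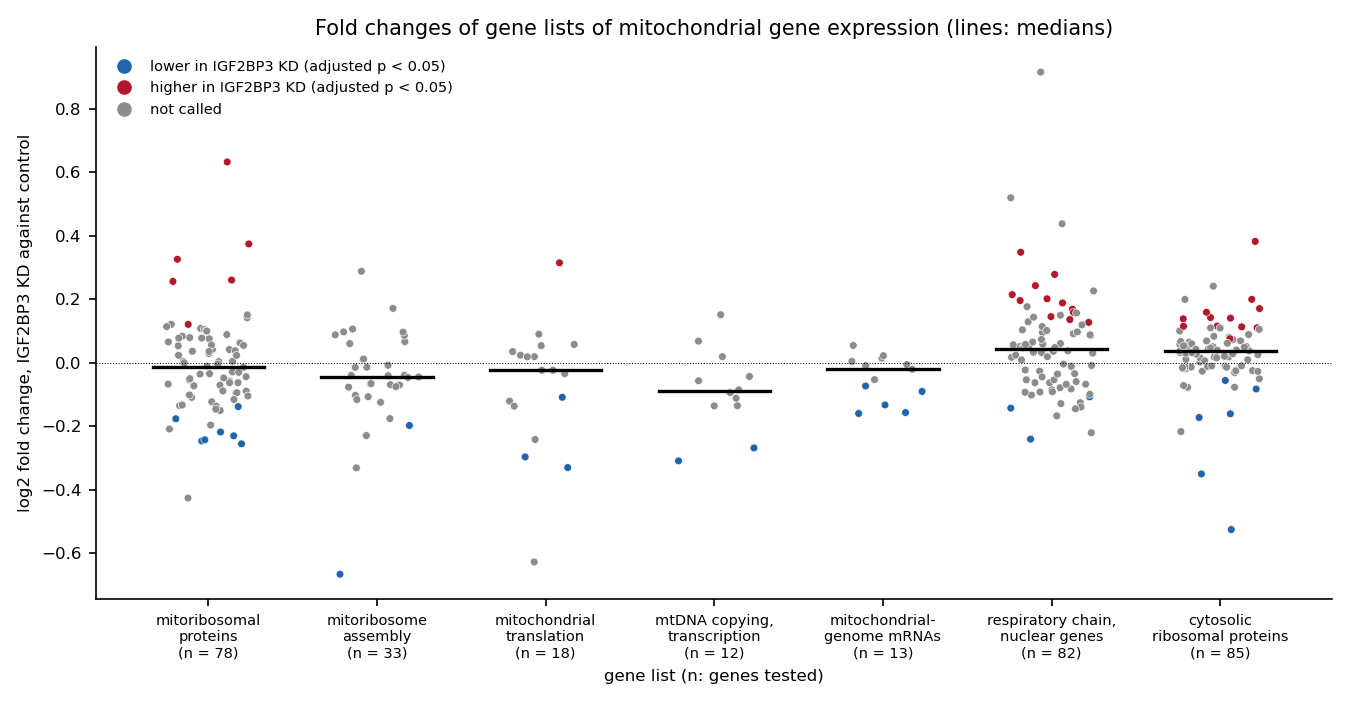
Log2 fold change between IGF2BP3 KD and control (y axis) of each tested gene in 7 lists (x axis), with black lines at the medians and colours for the calls. The medians lie between -0.09 and 0.04, and the lowest called point in the assembly list is MALSU1 at -0.67.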

How the data were processed

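RNA-seq was measured in 3 control and 3 IGF2BP3 KD libraries of OE-19 cells. The authors purified poly(A) RNA, prepared libraries with a directional kit, sequenced paired reads of 150 bases, used HISAT2 for mapping to hg38 and featureCounts for counting per gene. The deposited counts were not normalized. fastp is also named in the submitters' processing notes. Tool versions, the annotation release and the strand setting are not given in the sources used here. Columns were assigned by name, and 44 identifiers had 132 repeated entries, which were dropped.

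The quasi-likelihood test of edgeR 4.0.16 (R 4.3.3) was run after filterByExpr (minimum count 10, minimum total 15) and TMM scaling, with no block. P-values were adjusted by Benjamini-Hochberg over the 19778 genes that passed, and 0.05 was the threshold. CPM is the count divided by the TMM-scaled library size. The study used DESeq2, which is an alternative here (DESeq2 1.42.0). Alternatives were other scaling and filters, coding genes only, a replicate block, removal of trends on GC content or exon length (lowess span 0.3), DESeq2 and each library left out. The scripts were tested on simulated data. A chi-square per degree of freedom of at least 9.86 between libraries showed no duplicates. With 3 libraries against 3, an exact permutation test of a single value cannot go below a two-sided p of 0.1, so none was run.

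Values per library were given for all called members, the 3 with the highest RPKM and the 3 with the largest changes not called. Called genes of the other lists were named only for the lists closest to the mitoribosome. Members, gene lists, motifs and words were chosen with earlier results of these data known. Exon overlaps, lengths and 3′ UTRs came from GENCODE v44, and promoters from RefSeq.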

Additional observations from a re-analysis of the deposited data

How the results depend on the processing

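Under the alternatives tried, the 13 called members and *MRPL53*, *MRPL46*, *MRPL47* and *MRPS10* kept their direction, while uncalled members near 0, such as *MRPL13* and *MRPL42*, changed sign in some. With DESeq2, 11 members were lower and 5 higher, where 7 and 6 were called, and with the trend on exon length removed the split was 9 lower and 4 higher. At an adjusted p under 0.01, 3 were lower and 3 higher. Without a filter on low counts 3 were higher, and of the 37 members that share no exonic base 2 were higher. With each library left out in turn, 3 to 6 were lower and 3 to 5 higher: 4 lower without control replicate 3, 3 without IGF2BP3 KD replicate 1 and 4 without IGF2BP3 KD replicate 3, and 3 higher without control replicate 2, control replicate 3 or IGF2BP3 KD replicate 3. The median log2 fold change of the members was -0.0127 and became -0.0317 with the GC trend removed, -0.0508 with the exon length trend removed, -0.0313 with the GC trend removed and the replicate block, and -0.0347 over the members that share no exonic base. The causes were not tested. The replicate block gave 6 lower and 5 higher members and ended the calls of *MRPL41* (edgeR adjusted p = 0.0699), *MRPS17* (edgeR adjusted p = 0.0819) and *MT-RNR2*. The same-numbered libraries did not deviate together (correlations of -0.029, -0.092 and -0.077). Differently numbered libraries reached 0.084. Whether the numbers pair libraries cannot be told from such values, and the labels do not say. Over these 17 members and all alternatives, 210 values kept direction and side of the threshold, 43 lost the call and 2 gained it. The limits are the 3 libraries per group, which may be technical replicates, a single cell line, an unstated number of hairpins, and unstated strand and annotation of the counts. Small changes near the threshold, such as that of *MRPS17*, depend on single libraries.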
